A study of Mus musculus with 11 samples.

Results

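Imprinted genes, which are expressed from the copy inherited from a single parent, were examined in the brains of mouse embryos at embryonic day 9.5. The set held 40 genes named by symbol and grouped by imprinted cluster and by the parental copy known to be active: 12 maternally expressed, 22 paternally expressed and 6 whose active copy depends on tissue or transcript. All 40 had a row among the 27179 genes of the deposited counts, and 36 of them passed the filter on low counts. They fall into 18 clusters, of which 8 hold a single member. The embryos were C57BL/6 compound mutants for p53 (the gene Trp53, a tumour suppressor) and Bim (the gene Bcl2l11, a trigger of apoptosis), and their brains were dissected to a level behind the otic vesicle, the rudiment of the inner ear. By their labels, the 4 affected females were p53-/- Bim+/-, the 4 control males were also p53-/- Bim+/-, and the 3 control females were p53+/+ Bim+/-. The labels thus give every group 1 mutant Bim allele. Bcl2l11 nevertheless lay at 71.0 to 82.1 CPM in the libraries labelled control female, above both other groups, so the Bim genotype is given here only as labelled. Between affected females and control males, sex and being affected cannot be told apart, and between affected and control females, being affected and the p53 genotype cannot. Sex and p53 genotype likewise cannot be told apart between control males and control females. What the word affected means is not defined in the labels; in mice, p53 deficiency is known for failed closure of the cranial neural tube, mostly in females.

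Imprinting rests on DNA methylation that is laid down in the egg or the sperm at control regions and kept after fertilisation. Within a cluster, the maternal copy may express one gene while the paternal copy expresses its neighbour, often under the control of a long non-coding RNA. Many imprinted genes act in fetal growth, and in the developing brain several are known from proliferating precursors and new neurons. The counts here do not separate parental copies, so a level is the sum over both, and a change in level is not a measure of imprinting. The tissue holds several cell types, and fewer cells of a type cannot be told apart from less RNA per cell.

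Total counts per library ranged from 8211942 to 11218682. Levels are CPM, counts per 1000000 counts scaled by the TMM method, and tests are from edgeR's quasi-likelihood fit over 14542 genes with Benjamini-Hochberg adjustment; a gene is called at an adjusted p under 0.05. Ccng1, a direct p53 target, lay at 21.8 to 24.5 CPM among affected females, 27.5 to 33.5 CPM among control males and 74.7 to 93.8 CPM among control females, with both groups labelled p53-/- below the group labelled p53+/+. Counts over the whole Trp53 gene, 107 to 139 CPM among affected females, 112 to 132 among control males and 105 to 125 among control females, did not separate the genotypes. The Y-linked genes matched the sex labels, while Xist, the RNA of the inactive X chromosome, lay at 1435 to 2167 CPM among affected females, 8.72 to 13.2 among control males and 4391 to 5959 among control females and so also differed between the female groups (log2 fold change -1.55, SE 0.16, adjusted p = 0.000144, edgeR). Bcl2l11 lay at 38.2 to 47.3 CPM among affected females, 36.0 to 47.7 CPM among control males and 71.0 to 82.1 CPM among control females, although all groups share the Bim label (affected against control females, log2 fold change -0.81, SE 0.11, adjusted p = 0.000851, edgeR). Neural progenitor markers were abundant, with summed levels of 2769 to 3098 CPM among affected females, 2297 to 2856 among control males and 2383 to 2492 among control females. Of the defining yolk sac markers, Afp, Apoa1 and Ttr were at or near 0 in every library, and Apob lay at 3.20 to 4.10 CPM among affected females, 1.13 to 2.69 among control males and 2.04 to 2.33 among control females, with affected females above all controls. On the first principal component, which held 46.8% of the variance, control male 4 (-13.56) lay nearer to the affected females (-38.39 to -24.37) than to the other control males (8.96 to 38.77). Control female 1 stood apart on the second component (42.75, against 3.69 and 1.59 in control females 2 and 3).

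The members spanned a wide range of abundance. Together they took 1.01% to 1.10% of the counts of a library. Per kilobase of counted length, the paternally expressed hydrolase gene Mest led in all groups, with a mean level of 1084 CPM per kb among affected females, 1142 among control males and 1075 among control females. Next by this measure in control females were H19, a maternally expressed growth-related long non-coding RNA, with 339.6 CPM per kb, Nnat, which encodes the small membrane protein neuronatin, with 304 CPM per kb, and Grb10, an adaptor that restrains growth factor receptors, with 283 CPM per kb. Nnat ranked above Grb10 in control males and control females and below it in affected females. The 4 members that failed the filter were Dio3, Snrpn, Phlda2 and Slc22a18. Dio3, a deiodinase that inactivates thyroid hormone, had 2, 2, 4 and 4 counts among affected females, 6, 10, 11 and 6 among control males and 6, 7 and 8 among control females. Every affected female thus had fewer Dio3 counts than every control embryo. Without the filter its log2 fold change against control males was -1.40 (adjusted p = 0.0466, edgeR), and against control females -1.29 (adjusted p = 0.0794, edgeR). Snrpn, a splicing protein gene, had 0 to 3 counts per library, while Snurf, which shares its locus and 216 exonic bases, lay between 46.0 and 68.0 CPM, and reads of Snrpn cannot be told apart from those of Snurf here. Phlda2 and Slc22a18, a growth-restraining gene of placenta and a transporter gene, had 0 to 8 counts each. Phlda2 had 7, 5, 8 and 5 counts among affected females, 5, 2, 2 and 4 among control males and 0, 3 and 1 among control females, so affected and control females did not overlap. Without the filter it was called higher against control females (log2 fold change 2.03, SE 0.70, adjusted p = 0.0413, edgeR) and not against control males (log2 fold change 0.94, SE 0.53, adjusted p = 0.254, edgeR). Slc22a18 was not called (adjusted p = 0.109 against control females and 0.178 against control males, edgeR).

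In affected females against control females, 3 of the 36 tested members rose and 10 fell. The share that fell was 27.8%, against 15.0% of all genes tested, and the share that rose was 8.33%, against 13%. In all, 36.1% of members and 28.0% of all genes were called. The 10 that fell were the maternally expressed RNAs Meg3, Rian and Mirg, the maternally expressed Ppp1r9a and Cdkn1c, and the paternally expressed Dlk1, Plagl1, Nnat, Mkrn3 and Kcnq1ot1. The 3 that rose, Peg10, Peg13 and Ndn, are paternally expressed. For 22 of 36 members (61.1%) the CPM ranges of affected and control females did not overlap, against 40.2% of all genes tested. The median log2 fold change was -0.11 over the members and 0.00 over all genes.

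In affected females against control males, which share the p53-/- genotype, 7 members rose and 7 fell. Each share was 19.4%, against 9.51% of all genes that rose and 10.7% that fell, and 20.2% of all genes were called. Meg3, Rian, Mirg, Dlk1, Plagl1, Ppp1r9a and Nnat fell in this comparison and in that with control females. Peg10 and Ndn rose in both. The other 5 that rose against control males were H19, Igf2r, Asb4, Copg2 and Zdbf2. The 2 comparisons share the affected females, and whether they differ for any member was not tested. Ranges did not overlap for 9 of 36 members (25.0%), against 19.5% of all genes. Of the 14 called members, 7 overlapped, and in each of them control male 4 was the only control male within the range of the affected females. The median log2 fold change was -0.11 over the members and -0.02 over all genes.

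The comparison with control males depended on single libraries. Without affected female 3, 1 of the 14 member calls was kept (Plagl1), and 361 genes of all those tested were called. Leaving out control male 1 kept 4 calls, and the number was 7 without control male 2 or 3, 8 without affected female 4, 9 without affected female 2 and 10 without affected female 1. Without control male 4 all 14 were kept and 12 members rose. Against control females, 8 of the 13 calls were kept without control female 3, 10 without control female 2, 11 without affected female 3 or affected female 4, and 12 or 13 without any other single library. With control female 1 and control male 4 both left out, all calls were kept in both comparisons, and the counts were 12 higher and 11 lower against control females and 13 higher and 14 lower against control males.

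In control males against control females, none of the 36 members was called by edgeR, where 0.144% of all genes were. At an unadjusted p under 0.05 there were 3, all lower, and the counts were 0 with DESeq2 and 6, all lower, with limma voom and sample weights. Ranges did not overlap for 2 of 36 members (5.56%), against 5.54% of all genes. These were Kcnq1ot1 (log2 fold change -1.21, SE 0.32, adjusted p = 0.413, edgeR) and Zdbf2 (log2 fold change -0.22, SE 0.09, adjusted p = 0.773, edgeR). A p above the threshold does not show that these groups had the same levels.

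**Figure D1:**
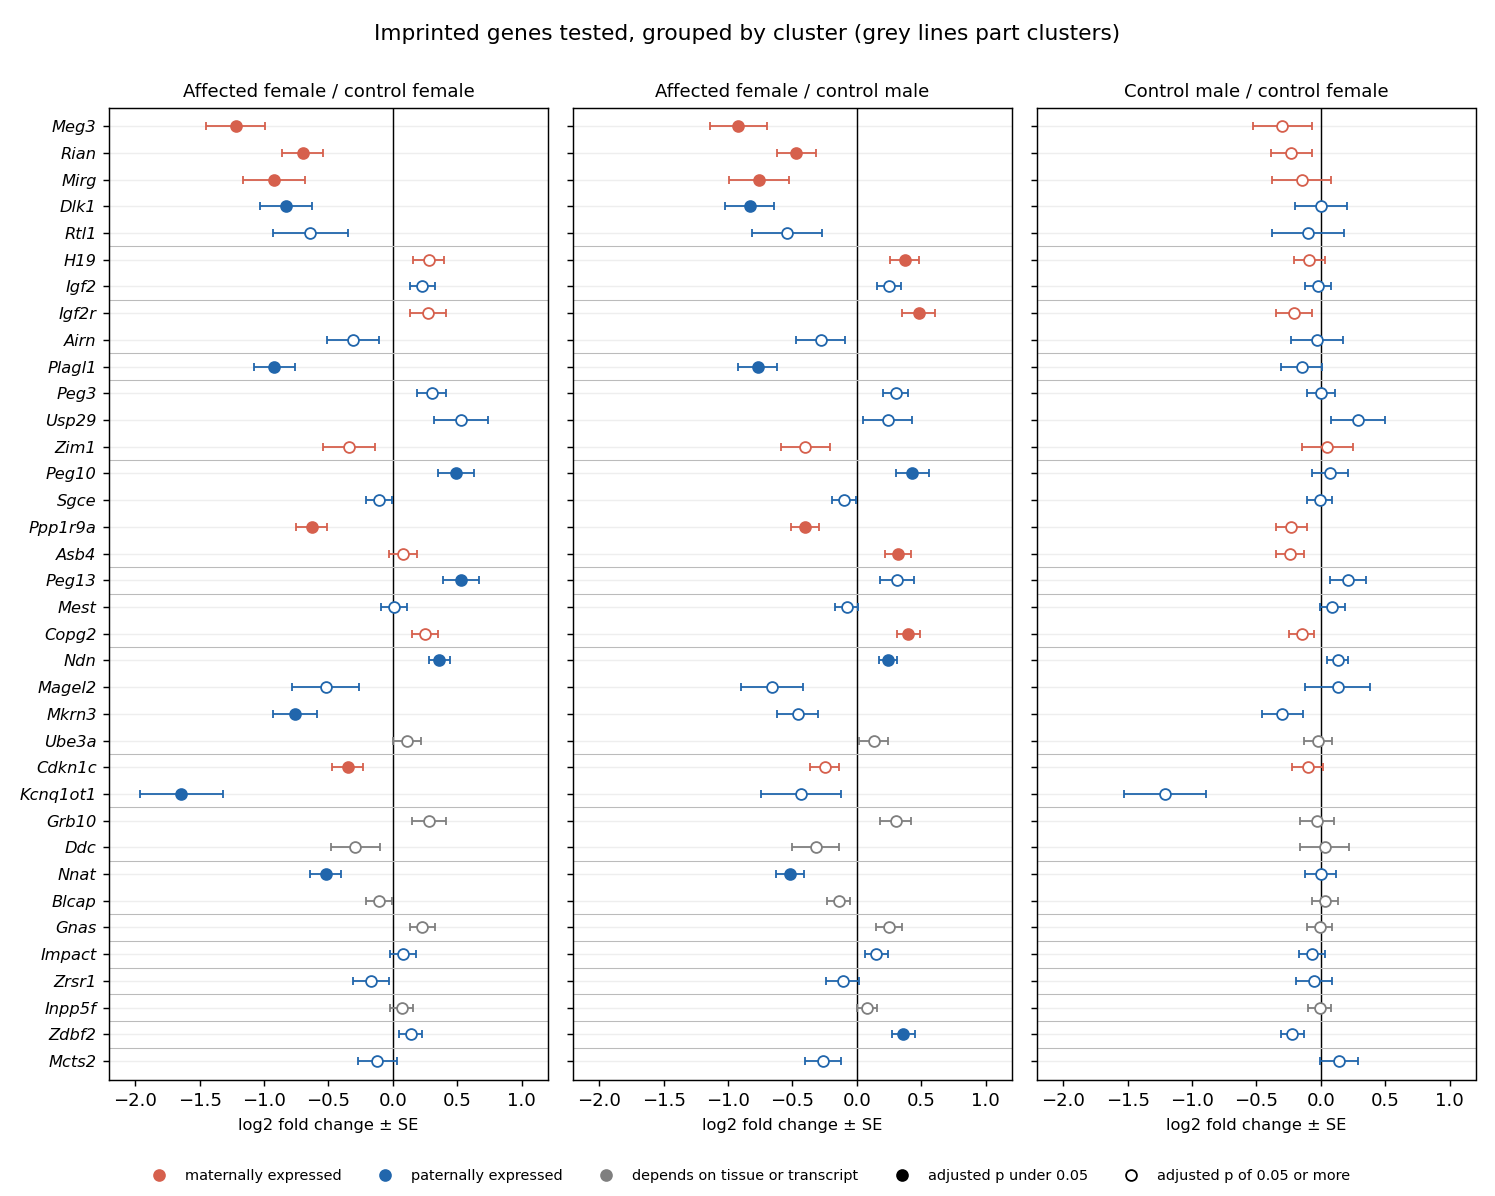
Log2 fold changes of the 36 tested imprinted genes (points, with bars for the SE) in the 3 comparisons, ordered by cluster; the horizontal axis is log2, colours give the parental copy and filled points passed an adjusted p of 0.05. The Dlk1-Dio3 members, Plagl1 and Nnat lie left of 0 in both panels with affected females, and no point is filled in control males against control females.

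Markers of cell types and the mitochondrial share of counts also differed between the groups. Mitochondrial genes took 1.31 to 1.69% of counts among affected females, 2.06 to 3.82% among control males and 2.48 to 4.99% among control females, so affected females lay below every control library. Of 26 early neuron markers 24 were tested, and 15 fell and none rose in each comparison of affected females, with median log2 fold changes of -0.91 against control females and -0.80 against control males (none was higher at an unadjusted p under 0.05, with DESeq2 or with limma voom). Their summed level was 344, 301, 302 and 365 CPM among affected females, 445, 689, 440.1 and 462 among control males and 356, 594 and 699 among control females. Affected females were below all control males, and control female 1 lay within their range. Of 11 surface ectoderm markers, 9 rose against control females and 8 against control males, with summed levels of 330.5 to 379 CPM among affected females, 195 to 269 among control males and 175 to 307 among control females. Shares over all genes tested were 13% higher and 15.0% lower against control females, and 9.51% and 10.7% against control males. With edgeR, 4 of 15 neural progenitor markers rose and 3 fell against control females, and 1 rose and 1 fell against control males. Of 14 tested head mesenchyme markers, 2 rose against control females and 1 against control males. Of 10 endothelial markers, 2 fell against control females and 0 against control males. Without control female 1 and control male 4, 19 neuron markers fell and 10 surface ectoderm markers rose against control females, and 17 fell and 9 rose against control males. Summed primitive erythroid markers lay at 1122 to 2320.2 CPM among affected females, 2140.3 to 3708 among control males and 562 to 4398 among control females. The tubulin gene Tubb3, a defining neuron marker, lay at 23.6 to 29.4 CPM among affected females, 33.0 to 46.0 CPM among control males and 23.1 to 48.8 CPM among control females. Control female 1 had 336 CPM of Meg3 with a neuron sum of 356 CPM. Control male 4 had 154 CPM of Meg3 with a neuron sum of 462 CPM. For Plagl1 the same embryos had 156 and 171 CPM, both above every affected female. The part of these markers and of the mitochondrial share in the members' differences was not tested.

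**Figure D2:**
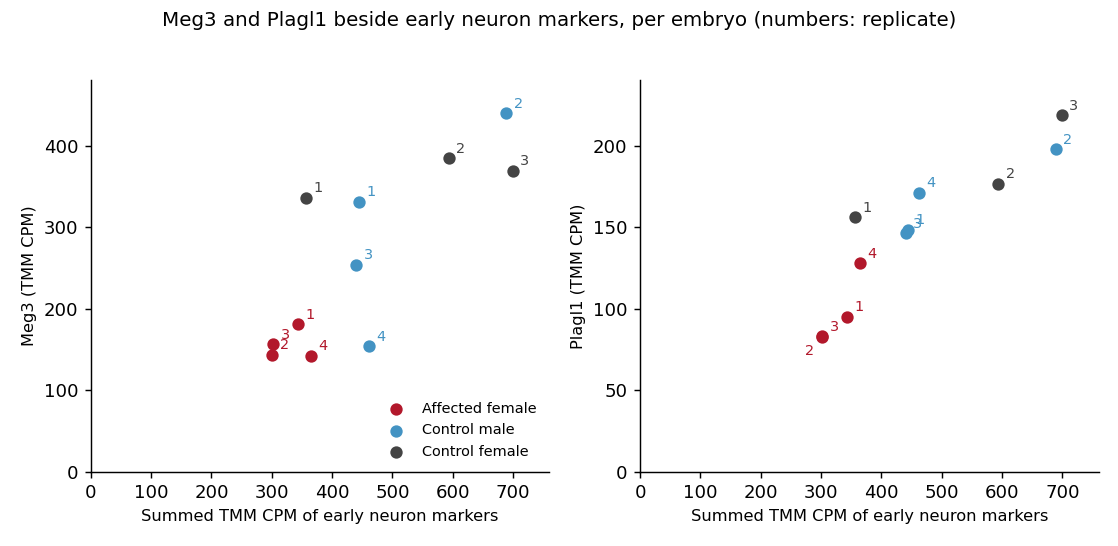
Meg3 (left) and Plagl1 (right) in each embryo against the summed level of 26 early neuron markers, all in TMM-scaled CPM on linear axes from 0; numbers are replicates, and affected females 2 and 3 coincide for Plagl1. Control female 1, which stood apart on the second principal component, has 336 CPM of Meg3 at a neuron sum of 356 CPM. Control male 4 has 154 CPM of Meg3 at a neuron sum of 462 CPM. Affected females have at most 181 CPM of Meg3. The part of neuron markers in these levels was not tested.

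Over all genes tested, 13% rose and 15.0% fell against control females, and 9.51% rose and 10.7% fell against control males. By parental copy, 5 of the 10 tested maternally expressed genes fell in affected against control females, and none rose with edgeR (2 were higher at an unadjusted p under 0.05, 1 with DESeq2 and 3 with limma voom). Against control males, 4 maternally expressed genes rose and 4 fell. Of the 20 tested paternally expressed genes, 3 rose and 5 fell against control females, and 3 rose and 3 fell against control males. None of the 6 genes that depend on tissue or transcript was called by edgeR in either comparison. At an unadjusted p under 0.05, 1 of these 6 was higher against control females and 2 against control males; against control females DESeq2 called 0 and limma voom called 3 higher and 1 lower, and against control males each called 2 higher. The median log2 fold changes were -0.35 (maternal), -0.11 (paternal) and 0.09 (tissue-dependent) against control females, and -0.32 (maternal), -0.11 (paternal) and 0.11 (tissue-dependent) against control males. Both parental classes thus held genes that moved in each direction against control males, and 3 of the maternally expressed falls come from a single cluster. Ppp1r9a, another of these falls, is counted as maternal because it is maternally expressed in some mouse tissues. Whether it is so in these brains was not measured.

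The Dlk1-Dio3 cluster on chromosome 12 held the most called members and also the most tested ones. Of its 5 tested members, edgeR called 4 lower in each comparison of affected females. Among all genes tested, 15.0% fell against control females and 10.7% against control males. The maternal copy of the cluster expresses the long non-coding RNA Meg3, the snoRNA host Rian and the microRNA host Mirg. Its paternal copy expresses Dlk1, a transmembrane relative of Notch ligands, the retrotransposon-derived gene Rtl1 and Dio3. Meg3, Rian, Mirg and Dlk1 fell in affected females in both comparisons, so genes of both parental classes were among them.

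Meg3 (chromosome 12, 109540996 to 109571729 in GRCm38) had the largest fold among the cluster's tested members. Meg3 stood at 181, 143, 156 and 142 CPM among affected females, at 331, 439.7, 254 and 154 CPM among control males and at 336, 384 and 369 CPM among control females. All affected females lay below all control females and below control males 1 to 3, while control male 4 was within their range. Meg3 was 2.33-fold lower than in control females (log2 fold change -1.22, SE 0.23, adjusted p = 0.00372, edgeR) and 1.89-fold lower than in control males (log2 fold change -0.92, SE 0.22, adjusted p = 0.014, edgeR). Rian spans 109603945 to 109661716. Rian stood at 328, 289, 314 and 276 CPM among affected females, at 444, 556, 378 and 296 CPM among control males and at 454, 492 and 521 CPM among control females. Here too control male 4 was the only control embryo within the range of the affected females. Rian was 1.62-fold lower than in control females (log2 fold change -0.70, SE 0.16, adjusted p = 0.00718, edgeR) and 1.39-fold lower than in control males (log2 fold change -0.47, SE 0.15, adjusted p = 0.0352, edgeR). Mirg spans 109734981 to 109749458. Mirg stood at 10.97, 9.45, 9.23 and 6.68 CPM among affected females, at 15.5, 20.4, 17.0 and 9.00 CPM among control males and at 12.2, 19.2 and 19.7 CPM among control females. Control female 1 was the lowest control female and still above all affected females, and control male 4 lay among the affected females. Mirg was 1.89-fold lower than in control females (log2 fold change -0.92, SE 0.24, adjusted p = 0.0145, edgeR) and 1.70-fold lower than in control males (log2 fold change -0.76, SE 0.23, adjusted p = 0.0311, edgeR).

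Dlk1 (chromosome 12, 109452485 to 109463336) is expressed from the other parental copy and fell as well. Dlk1 stood at 34.9, 30.0, 36.4 and 42.6 CPM among affected females, at 68.3, 90.1, 49.5 and 48.5 CPM among control males and at 48.2, 69.7 and 74.0 CPM among control females. Every affected female was below every control embryo of either sex. Dlk1 was 1.78-fold lower than in control females (log2 fold change -0.83, SE 0.20, adjusted p = 0.00945, edgeR) and 1.78-fold lower than in control males (log2 fold change -0.83, SE 0.19, adjusted p = 0.012, edgeR). Rtl1, on the opposite strand, was scarce. Rtl1 stood at 1.60, 1.23, 1.40 and 1.65 CPM among affected females, at 1.60, 3.31, 1.97 and 1.73 CPM among control males and at 1.99, 2.54 and 2.32 CPM among control females. Its affected and control females did not overlap, but the difference was not called (log2 fold change -0.64, SE 0.29, adjusted p = 0.109, edgeR), nor was that with control males (log2 fold change -0.54, SE 0.27, adjusted p = 0.161, edgeR). Leaving out 1 library ended some of these calls. Against control females this held for Mirg without control females 2 or 3 (adjusted p of up to 0.0705) and for Dlk1 without control female 3 (adjusted p of up to 0.0503). Against control males it held for Meg3 without affected female 3 or control male 1 (adjusted p of up to 0.0539), for Rian without affected females 2, 3 or 4 or control males 1, 2 or 3 (adjusted p of up to 0.105), for Mirg without affected females 2, 3 or 4 or control males 1, 2 or 3 (adjusted p of up to 0.0983) and for Dlk1 without affected female 3 (adjusted p of up to 0.0501). The direction stayed the same in each.

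**Figure D3:**
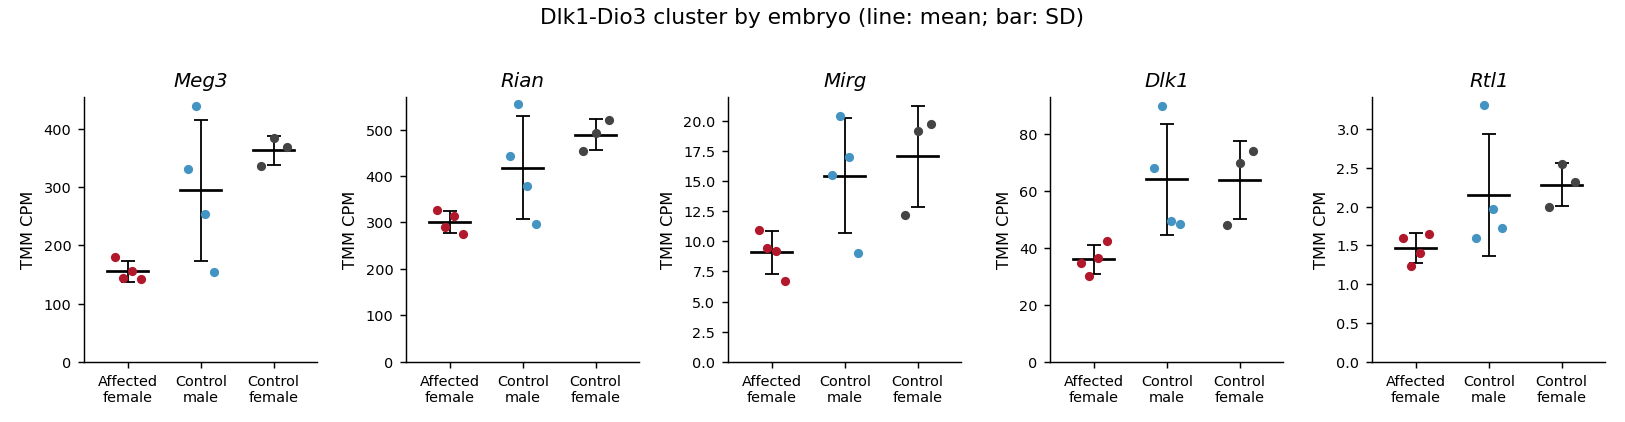
Levels of the tested Dlk1-Dio3 members in each embryo (points), in TMM-scaled CPM on linear axes from 0, with the group mean (line) and SD (bar). Meg3 lies at 142 to 181 CPM among affected females and 336 to 384 CPM among control females, with the lowest control male at 154 CPM.

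Within the cluster Rian did not fall by the same proportion as Meg3. The ratio of Rian to Meg3 counts was 1.81, 2.02, 2.00 and 1.94 among affected females, 1.34, 1.26, 1.49 and 1.92 among control males and 1.35, 1.28 and 1.41 among control females. It was higher in every affected female than in every control female, and control male 4 was the only control male within the range of the affected females. For Mirg to Meg3 the ratio of counts overlapped among the groups. It was 0.0470 to 0.0660 among affected females, 0.0463 to 0.0668 among control males and 0.0363 to 0.0535 among control females. The ratio of Dlk1 to Meg3 counts was 0.193, 0.209, 0.233 and 0.2995 among affected females, 0.206, 0.205, 0.195 and 0.315 among control males and 0.143, 0.182 and 0.200 among control females. Affected females and control males overlapped in this ratio, and affected and control females overlapped at its edge. These ratios take no account of gene length and compare libraries only.

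The maternal RNAs of this cluster are also templates for small RNAs, and H19 and Mest host microRNAs as well. The deposited counts are of polyadenylated transcripts, so mature microRNAs were not measured. In RefSeq on GRCm38.p6, 40 mature microRNAs lie in 8 of the members on the member's own strand, with 39 distinct seeds (bases 2 to 8, which pair with targets). MicroRNAs on the opposite strand, such as those opposite Rtl1, were not counted. Mirg alone spans 19 from 10 hairpins. Shown are examples from the hosts that fell (Meg3, Rian and Mirg), the only seed that occurs more than once among these 40, and examples from H19 and Mest, with the seed in capitals.
miR-770-5p: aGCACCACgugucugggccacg
miR-370-3p: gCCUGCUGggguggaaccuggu
miR-453: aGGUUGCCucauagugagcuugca
miR-496a-5p: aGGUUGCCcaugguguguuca
miR-154-5p: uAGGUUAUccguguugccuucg
miR-410-3p: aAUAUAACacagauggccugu
miR-675-5p: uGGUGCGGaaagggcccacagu
miR-335-5p: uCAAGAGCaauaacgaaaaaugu
The first lies in Meg3, the second in Rian and the next 4 in Mirg; miR-453 and miR-496a-5p share the seed GGUUGCC. miR-675-5p lies in H19 and miR-335-5p in Mest.

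Plagl1 (chromosome 10, 13090832 to 13131694) encodes a paternally expressed zinc finger transcription factor that is known to regulate other imprinted genes in mouse. Plagl1 stood at 95.0, 82.6, 82.9 and 128 CPM among affected females, at 148, 198, 146 and 171 CPM among control males and at 156, 177 and 219 CPM among control females. Every affected female was below every control embryo, and affected female 4 was the highest of its group. Plagl1 was 1.89-fold lower than in control females (log2 fold change -0.92, SE 0.16, adjusted p = 0.00272, edgeR) and 1.71-fold lower than in control males (log2 fold change -0.77, SE 0.15, adjusted p = 0.00907, edgeR). It was the only member whose calls in both comparisons held under all 20 alternatives, with log2 fold changes of -1.09 to -0.78 and -0.93 to -0.68.

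Nnat (chromosome 2, 157560078 to 157562525) is paternally expressed and is known from newly formed neurons. Nnat stood at 269, 248, 241 and 270.2 CPM among affected females, at 359.8, 419, 368 and 328 CPM among control males and at 293, 385 and 429 CPM among control females. The affected females lay together below all controls, and control female 1 was the lowest control. Nnat was 1.44-fold lower than in control females (log2 fold change -0.52, SE 0.12, adjusted p = 0.00809, edgeR) and 1.43-fold lower than in control males (log2 fold change -0.52, SE 0.11, adjusted p = 0.011, edgeR). The call was lost without control female 3 (adjusted p of up to 0.0533) against control females and without affected female 3 (adjusted p of up to 0.0512) against control males. Blcap, which surrounds Nnat and uses the opposite strand, had overlapping ranges: Blcap spanned 38.5 to 49.2 CPM among affected females, 46.6 to 53.2 among control males and 46.4 to 52.1 among control females.

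The Igf2-H19 and Igf2r-Airn clusters hold the central growth genes of imprinting. Igf2, paternally expressed, encodes a fetal growth factor, and Igf2r, maternally expressed, a receptor that removes it. H19 is the maternal neighbour of Igf2, and Airn is the paternal RNA antisense to Igf2r. H19 and Igf2r rose in affected females against control males. None of the 4 genes was called against control females with edgeR, where H19 and Igf2 had an unadjusted p under 0.05; DESeq2 called these 2, and limma voom called these and Igf2r.

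H19 lies at chromosome 7, 142575530 to 142578146. H19 stood at 1181, 1073, 1107 and 967 CPM among affected females, at 753, 750.5, 842 and 1004 CPM among control males and at 941, 848 and 875 CPM among control females. Control male 4 reached the range of the affected females and the other control males stayed below it, and control females also lay below it. H19 was 1.29-fold higher than in control males (log2 fold change 0.37, SE 0.11, adjusted p = 0.0299, edgeR) and 1.22-fold higher than in control females without being called (log2 fold change 0.28, SE 0.12, adjusted p = 0.0798, edgeR). Igf2r lies at chromosome 17, 12682406 to 12769706. Igf2r stood at 209, 179, 198 and 217 CPM among affected females, at 121, 148, 153 and 154 CPM among control males and at 214, 147 and 139 CPM among control females. Affected females were above all control males, while control female 1 was as high as they were. Igf2r was 1.40-fold higher than in control males (log2 fold change 0.48, SE 0.13, adjusted p = 0.0203, edgeR), and against control females it was not called (log2 fold change 0.27, SE 0.14, adjusted p = 0.145, edgeR). These calls were lost for H19 without affected females 1, 2 or 3 or control males 1, 2 or 3 (adjusted p of up to 0.102) and for Igf2r without affected females 3 or 4 or control male 1 (adjusted p of up to 0.076).

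Igf2 itself (chromosome 7, 142650768 to 142666816) lay close to the threshold. Igf2 stood at 710.4, 614, 628 and 667 CPM among affected females, at 499, 564, 538 and 602 CPM among control males and at 598, 545 and 528 CPM among control females. Every affected female exceeded every control embryo, yet the difference was not called against control females (log2 fold change 0.23, SE 0.10, adjusted p = 0.0844, edgeR) or control males (log2 fold change 0.25, SE 0.09, adjusted p = 0.0616, edgeR). Airn spanned 4.46 to 6.58 CPM among affected females, 5.27 to 7.90 among control males and 5.72 to 7.85 among control females, with overlapping ranges. The ratio of Igf2 to H19 counts overlapped among the groups, with 0.602, 0.573, 0.567 and 0.690 among affected females, 0.663, 0.752, 0.640 and 0.599 among control males and 0.636, 0.642 and 0.604 among control females. The ratio of Igf2r to Airn counts was 31.8, 38.7, 40.1 and 48.6 among affected females, 15.3, 23.5, 27.1 and 29.1 among control males and 27.3, 25.7 and 24.1 among control females. It was higher in every affected female than in every control embryo. Airn had few counts, so this ratio is imprecise.

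The Peg10-Sgce cluster on chromosome 6 moved in opposite directions among its members. Peg10 (chromosome 6, 4747306 to 4760517), a paternally expressed gene derived from a retrotransposon, rose in both comparisons. Peg10 stood at 942, 776, 881 and 954 CPM among affected females, at 585, 561, 643 and 857 CPM among control males and at 675, 625 and 596 CPM among control females. Affected females exceeded all controls apart from control male 4, which lay within their range. Peg10 was 1.41-fold higher than in control females (log2 fold change 0.49, SE 0.14, adjusted p = 0.0183, edgeR) and 1.34-fold higher than in control males (log2 fold change 0.43, SE 0.13, adjusted p = 0.0305, edgeR). Sgce, the epsilon-sarcoglycan gene that shares a promoter region with Peg10 on the other strand, stayed in overlapping ranges: Sgce spanned 27.7 to 32.8 CPM among affected females, 30.7 to 37.1 among control males and 30.9 to 34.8 among control females.

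Ppp1r9a (chromosome 6, 4902872 to 5165661) is maternally expressed in some mouse tissues and encodes neurabin, an actin-binding partner of protein phosphatase 1. Ppp1r9a stood at 110.2, 94.7, 95.6 and 113 CPM among affected females, at 143, 164, 131 and 106 CPM among control males and at 168, 162 and 149 CPM among control females. All affected females were below all control females, and control male 4 was within their range. Ppp1r9a was 1.54-fold lower than in control females (log2 fold change -0.63, SE 0.12, adjusted p = 0.0041, edgeR) and 1.32-fold lower than in control males (log2 fold change -0.40, SE 0.11, adjusted p = 0.0267, edgeR). Asb4 (chromosome 6, 5383386 to 5433022) is a maternally expressed gene for a substrate adaptor of ubiquitin ligases. Asb4 stood at 41.8, 34.1, 35.7 and 39.5 CPM among affected females, at 29.4, 27.6, 28.9 and 34.9 CPM among control males and at 37.4, 32.3 and 37.2 CPM among control females. Affected females overlapped control females and control male 4 and lay above the other control males. Asb4 was 1.25-fold higher than in control males (log2 fold change 0.32, SE 0.10, adjusted p = 0.0372, edgeR), and against control females it was not called (log2 fold change 0.08, SE 0.11, adjusted p = 0.572, edgeR). The Peg10 call was lost without affected females 3 or 4 or control females 2 or 3 (adjusted p of up to 0.0787) against control females and without affected females 1, 3 or 4 or control males 1, 2 or 3 (adjusted p of up to 0.103) against control males. Against control males that of Ppp1r9a was lost without affected females 2 or 3 or control males 1, 2 or 3 (adjusted p of up to 0.0918), and that of Asb4 without affected females 1, 3 or 4 or control males 1, 2 or 3 (adjusted p of up to 0.101).

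**Figure D4:**
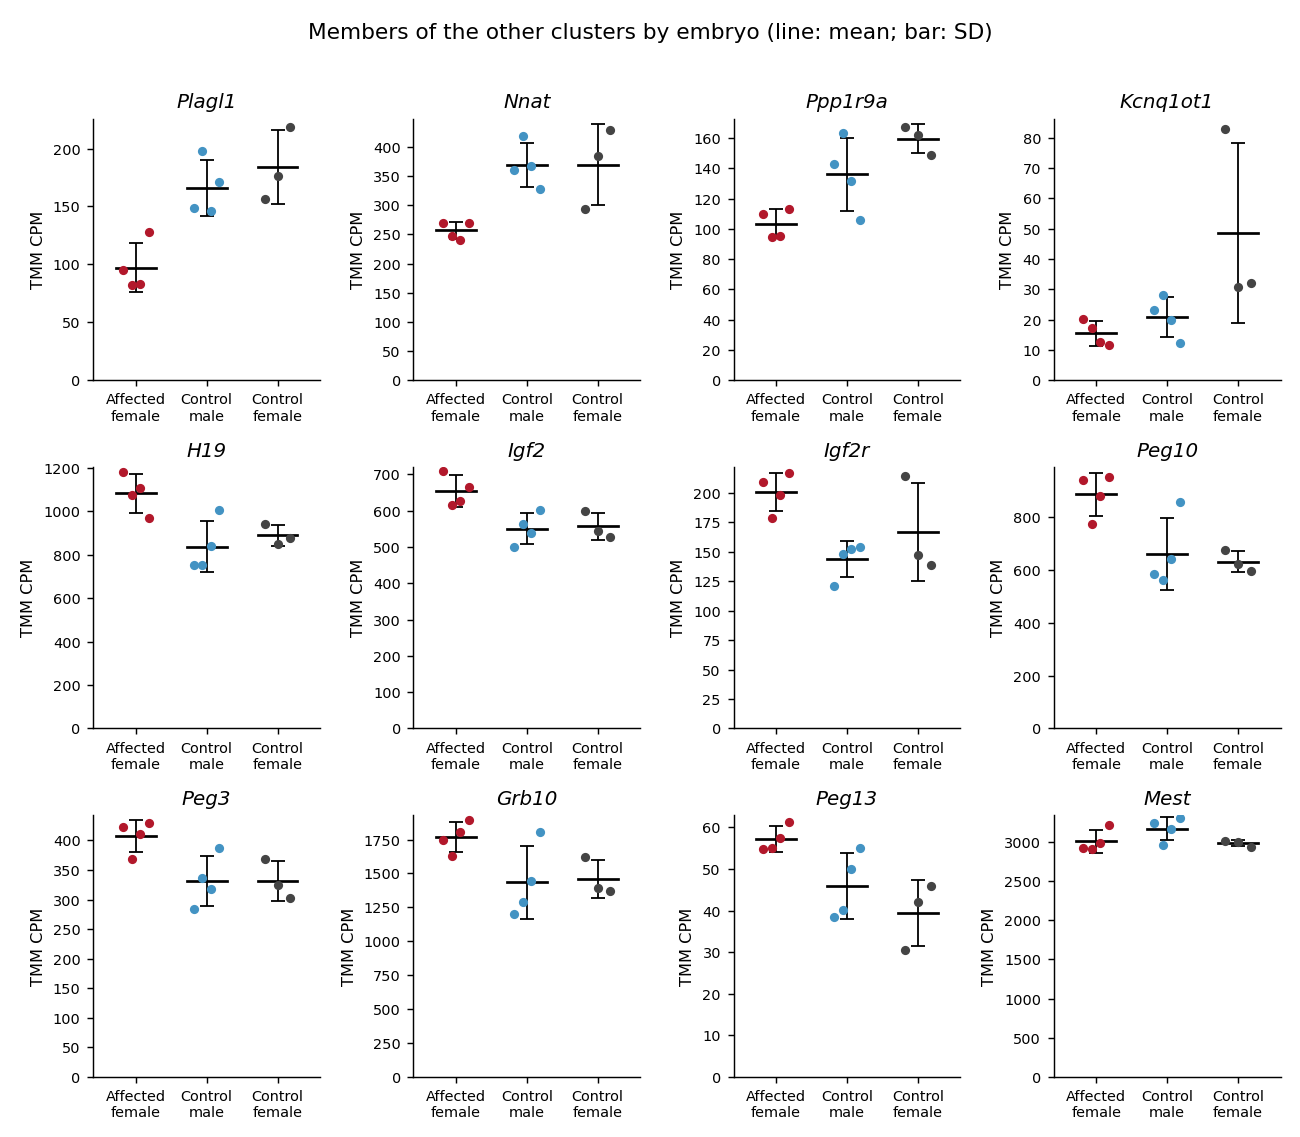
Levels of 12 members of other clusters in each embryo (points), in TMM-scaled CPM on linear axes from 0, with the group mean (line) and SD (bar). Plagl1 and Nnat lie lower in all 4 affected females than in any control, and Mest has overlapping ranges near 2984 CPM.

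Peg13, a paternally expressed long non-coding RNA in an intron of Trappc9 (chromosome 15, 72805602 to 72810324), was higher in affected than in control females. Peg13 stood at 54.7, 55.0, 57.4 and 61.4 CPM among affected females, at 38.6, 40.1, 50.01 and 55.2 CPM among control males and at 30.5, 42.0 and 45.9 CPM among control females. Control male 4 lay within the range of the affected females, and control female 1 was the lowest embryo. Peg13 was 1.44-fold higher than in control females (log2 fold change 0.53, SE 0.14, adjusted p = 0.0153, edgeR), and against control males it was not called (log2 fold change 0.31, SE 0.13, adjusted p = 0.0899, edgeR).

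In the Mest-Copg2 cluster, Mest did not separate the groups. Mest stood at 2920.4, 2913, 2986 and 3217 CPM among affected females, at 3243, 2966, 3164 and 3314 CPM among control males and at 3009, 3001 and 2942 CPM among control females. The ranges overlapped in every comparison, and the log2 fold changes of affected females were 0.01 (SE 0.10) against control females and -0.08 (SE 0.09) against control males. Copg2 (chromosome 6, 30747554 to 30896815), a coat protein subunit gene maternally expressed in part, overlaps Mest on the opposite strand by 912 exonic bases. Whether the counting used strand is not stated in what was available here, so reads of that stretch cannot be assigned with certainty. Copg2 stood at 137, 143, 156 and 151 CPM among affected females, at 100.2, 101, 112 and 131 CPM among control males and at 130.1, 119.8 and 119 CPM among control females. Affected females were above all controls, and control male 4 was the highest control. Copg2 was 1.32-fold higher than in control males (log2 fold change 0.40, SE 0.09, adjusted p = 0.0121, edgeR), a call that was lost without affected female 3 (adjusted p of up to 0.0573), and 1.19-fold higher than in control females without being called (log2 fold change 0.25, SE 0.10, adjusted p = 0.0629, edgeR).

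The Snrpn-Ube3a cluster on chromosome 7 also split. Ndn (chromosome 7, 62348277 to 62349928) encodes necdin, a MAGE family protein of postmitotic neurons, and it rose in both comparisons by a small amount. Ndn stood at 67.6, 68.1, 64.0 and 68.2 CPM among affected females, at 56.3, 54.3, 58.5 and 58.3 CPM among control males and at 52.7, 49.3 and 54.3 CPM among control females. The affected females formed a narrow group above all controls. Ndn was 1.29-fold higher than in control females (log2 fold change 0.36, SE 0.08, adjusted p = 0.00598, edgeR) and 1.18-fold higher than in control males (log2 fold change 0.24, SE 0.07, adjusted p = 0.0318, edgeR). Mkrn3 (chromosome 7, 62417593 to 62420153), a makorin with a ring finger, fell against control females. Mkrn3 stood at 11.47, 13.5, 10.4 and 10.8 CPM among affected females, at 19, 17.6, 13.7 and 13.1 CPM among control males and at 15.2, 22.8 and 20.5 CPM among control females. Affected females overlapped control males through affected female 2 and not control females. Mkrn3 was 1.69-fold lower than in control females (log2 fold change -0.76, SE 0.17, adjusted p = 0.00677, edgeR), and against control males it was not called (log2 fold change -0.46, SE 0.16, adjusted p = 0.0523, edgeR). Magel2, another MAGE gene, was not called against control females (log2 fold change -0.52, SE 0.26, adjusted p = 0.132, edgeR) or control males (log2 fold change -0.66, SE 0.24, adjusted p = 0.0589, edgeR). Magel2 spanned 5.23 to 9.07 CPM among affected females, 6.63 to 17.1 among control males and 9.10 to 12.3 among control females. Ube3a, a ubiquitin ligase gene that is maternally expressed in neurons, had overlapping ranges, with 165 ± 9.16 CPM among affected females, 150.3 ± 18.7 CPM among control males and 153 ± 25.1 CPM among control females (SD, n = 4, 4 and 3). It shares 1803 exonic bases with the antisense RNA Snhg14. Against control males the call of Ndn was lost without affected females 1, 2, 3 or 4 or control males 1, 2 or 3 (adjusted p of up to 0.085) and also with no expression filter.

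In the Kcnq1ot1-Cdkn1c cluster, also on chromosome 7, both tested members fell against control females. Kcnq1ot1 (chromosome 7, 143213111 to 143296547) is the paternal RNA that silences its neighbours on the paternal copy, and Cdkn1c (chromosome 7, 143458339 to 143461059) is a maternally expressed inhibitor of cyclin-dependent kinases. Kcnq1ot1 stood at 20.2, 17.4, 12.6 and 11.6 CPM among affected females, at 23.0, 28.0, 19.8 and 12.4 CPM among control males and at 82.7, 30.6 and 32.1 CPM among control females. Control female 1 stood far above the other control females, which were still above every affected female. Kcnq1ot1 was 3.12-fold lower than in control females (log2 fold change -1.64, SE 0.32, adjusted p = 0.00436, edgeR). The log2 fold change was -1.02 at its smallest, without control female 1, and the call was kept under all alternatives. Against control males it was not called (log2 fold change -0.43, SE 0.31, adjusted p = 0.331, edgeR). Cdkn1c stood at 42.6, 53.3, 45.0 and 45.2 CPM among affected females, at 49.7, 70.2, 52.1 and 49.2 CPM among control males and at 54.3, 61.2 and 61.6 CPM among control females. Affected females were below all control females by a narrow gap and overlapped control males. Cdkn1c was 1.27-fold lower than in control females (log2 fold change -0.35, SE 0.12, adjusted p = 0.048, edgeR), a call that was lost without affected females 1, 3 or 4 or control males 1 or 3 or control females 2 or 3 (adjusted p of up to 0.146), and it was not called against control males (log2 fold change -0.25, SE 0.11, adjusted p = 0.127, edgeR).

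Zdbf2 (chromosome 1, 63200358 to 63314576), a paternally expressed zinc finger gene, rose against control males. Zdbf2 stood at 182, 208, 181 and 172 CPM among affected females, at 127, 163, 141 and 147 CPM among control males and at 169, 169 and 166 CPM among control females. Affected females were above all controls, and the control females, which lay close together, were above all control males. Zdbf2 was 1.29-fold higher than in control males (log2 fold change 0.36, SE 0.09, adjusted p = 0.0153, edgeR), a call that was lost without affected female 3 or control male 1 (adjusted p of up to 0.0597), and against control females it was not called (log2 fold change 0.14, SE 0.09, adjusted p = 0.269, edgeR).

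The members not yet described were not called by edgeR in any comparison. DESeq2 called Peg3 higher in affected females in both of their comparisons, and Grb10 and Gnas higher against control males. Limma voom called Peg3, Grb10 and Gnas higher in both. It also called Usp29 higher and Ddc lower against control females, and Mcts2 lower against control males. In the Peg3 cluster, Peg3 spanned 369 to 429.6 CPM among affected females, 284 to 387 among control males and 302 to 369 among control females. Peg3, a paternally expressed zinc finger gene of growth and maternal behaviour in mouse, was just outside the threshold against control females (log2 fold change 0.30, SE 0.11, adjusted p = 0.0569, edgeR) and control males (log2 fold change 0.30, SE 0.10, adjusted p = 0.0503, edgeR). Its maternal neighbour Zim1 had lower point estimates, and Zim1 spanned 6.68 to 7.65 CPM among affected females, 6.45 to 12.8 among control males and 8.16 to 10.5 among control females. The ratio of Peg3 to Zim1 counts was 63.3, 49.8, 61.3 and 56.1 among affected females, 28.0, 26.3, 38.8 and 59.9 among control males and 35.2, 37.9 and 37.0 among control females. All affected females exceeded all control females in this ratio, and control male 4 lay within their range. Usp29 had 3.18 to 7.18 CPM over all embryos.

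Grb10 and Gnas, both abundant and dependent on tissue for the active copy, had higher point estimates. Grb10 spanned 1631 to 1894 CPM among affected females, 1198 to 1805 among control males and 1369 to 1619 among control females. Affected and control females did not overlap for Grb10, by a narrow gap, and it was not called against control females (log2 fold change 0.28, SE 0.13, adjusted p = 0.129, edgeR) or control males (log2 fold change 0.30, SE 0.12, adjusted p = 0.0906, edgeR). Gnas spanned 822 to 852 CPM among affected females, 624 to 807 among control males and 680.2 to 752 among control females. Gnas encodes the stimulatory G protein alpha subunit, and all 4 affected females exceeded all controls without a call against control females (log2 fold change 0.23, SE 0.10, adjusted p = 0.0997, edgeR) or control males (log2 fold change 0.25, SE 0.10, adjusted p = 0.0761, edgeR). Ddc, Inpp5f, Impact, Zrsr1 and Mcts2 had overlapping ranges in all 3 comparisons. These are the aromatic amino acid decarboxylase, a phosphoinositide phosphatase, an inhibitor of the kinase GCN2, a splicing factor and a retrogene within H13, and their mean levels in affected females ran from 5.04 (Ddc) to 104 CPM (Impact).

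Of 49 further imprinted genes listed beside the members, 47 had a row and 33 passed the filter. In affected against control females 7 rose and 5 fell (median log2 fold change -0.03), and against control males 8 rose and 1 fell (median 0.06). In all, 36.4% of the 33 were called against control females and 27.3% against control males, beside shares over all genes of 13% higher and 15.0% lower against control females and 9.51% higher and 10.7% lower against control males. Cobl, an actin nucleator gene next to Grb10, rose most. Cobl stood at 14.7, 13.4, 12.4 and 12.3 CPM among affected females, at 4.51, 5.58, 6.02 and 7.45 CPM among control males and at 7.23, 4.45 and 3.24 CPM among control females. All affected females were above all controls. Cobl was 2.69-fold higher than in control females (log2 fold change 1.43, SE 0.23, adjusted p = 0.00248, edgeR) and 2.23-fold higher than in control males (log2 fold change 1.16, SE 0.20, adjusted p = 0.00711, edgeR). Snhg14, the paternally expressed antisense host RNA of Ube3a, fell in both comparisons. Snhg14 stood at 64.6, 57.6, 48.5 and 46.2 CPM among affected females, at 105, 113, 90.7 and 53.8 CPM among control males and at 130.5, 124 and 109 CPM among control females. Control male 4 was within the range of the affected females and no other control was. Snhg14 was 2.23-fold lower than in control females (log2 fold change -1.16, SE 0.19, adjusted p = 0.00248, edgeR) and 1.67-fold lower than in control males (log2 fold change -0.74, SE 0.18, adjusted p = 0.0147, edgeR), and the second call was lost without affected female 3 or control male 1 (adjusted p of up to 0.0619). Dlx5, Smoc1, Gab1 and Ago2 also rose in both comparisons, with log2 fold changes of 0.30 to 1.29 against control females and 0.30 to 0.78 against control males. Besides Snhg14, Atp10a, Tspan32, H13 and Commd1 fell against control females (log2 fold changes of -0.77, -1.43, -0.33 and -0.34) and were not called against control males. The adjusted p were 0.011, 0.0315, 0.0491 and 0.04999 (edgeR), so H13 and Commd1 lay at the threshold, and the SE of Tspan32 was 0.46. Herc3 and Trappc9 rose against control males (log2 fold changes of 0.44 for each, adjusted p = 0.0199 and 0.0472, edgeR). For Atp10a, Tspan32, H13, Commd1, Herc3 and Trappc9, the effect of leaving out single libraries was not examined. Against control females the call of Smoc1 was lost without affected female 4 or control female 2 (adjusted p of up to 0.0638), that of Gab1 without affected female 3 or control females 2 or 3 (adjusted p of up to 0.0992) and that of Ago2 without affected females 1, 3 or 4 or control male 3 or control females 1, 2 or 3 (adjusted p of up to 0.0999). Against control males the call of Dlx5 was lost without affected females 1 or 3 or control males 1, 2 or 3 (adjusted p of up to 0.0989), that of Gab1 without affected females 3 or 4 or control males 1 or 3 (adjusted p of up to 0.0768) and that of Ago2 without affected females 1, 3 or 4 or control males 1, 2 or 3 (adjusted p of up to 0.11). Without control female 1 and control male 4 the counts were 9 higher and 8 lower against control females, and 11 higher and 8 lower against control males.

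Genes for factors that keep or remove imprints were listed separately, 26 in all, of which 23 were tested. Against control females 4 rose and 2 fell (median log2 fold change 0.14), and against control males 5 rose and 2 fell (median 0.10). In all, 26.1% of them were called against control females and 30.4% against control males, beside 28.0% and 20.2% of all genes. Zfp57, a zinc finger protein that binds methylated imprinting control regions and protects them after fertilisation, fell most. Zfp57 stood at 46.3, 37.7, 33.5 and 35.1 CPM among affected females, at 88.7, 135, 84.0 and 56.98 CPM among control males and at 101, 107 and 110.4 CPM among control females. Every affected female was below every control embryo, and control male 4 was the lowest control. Zfp57 was 2.79-fold lower than in control females (log2 fold change -1.48, SE 0.20, adjusted p = 0.000998, edgeR) and 2.39-fold lower than in control males (log2 fold change -1.26, SE 0.19, adjusted p = 0.0046, edgeR). Tet2, an enzyme that oxidises methylated cytosine, fell as well. Tet2 was 2.12-fold lower than in control females (log2 fold change -1.08, SE 0.22, adjusted p = 0.00495, edgeR) and 1.54-fold lower than in control males (log2 fold change -0.62, SE 0.21, adjusted p = 0.0476, edgeR). The second of these calls was lost without affected females 1, 2, 3 or 4 or control males 1, 2 or 3 or control females 2 or 3 (adjusted p of up to 0.168). Tet1 was not called against control females and rose against control males (log2 fold change 0.45, SE 0.12, adjusted p = 0.0204, edgeR). Dnmt1, which copies methylation at replication, and Dnmt3b, a de novo methyltransferase, rose in both comparisons. Dnmt1 was 1.38-fold higher than in control females (log2 fold change 0.47, SE 0.13, adjusted p = 0.0179, edgeR) and 1.5-fold higher than in control males (log2 fold change 0.58, SE 0.12, adjusted p = 0.0102, edgeR). Dnmt3b was 1.54-fold higher than in control females (log2 fold change 0.63, SE 0.16, adjusted p = 0.0133, edgeR) and 1.56-fold higher than in control males (log2 fold change 0.65, SE 0.15, adjusted p = 0.0133, edgeR). The call of Dnmt1 against control females was lost without affected females 3 or 4 or control females 2 or 3 (adjusted p of up to 0.0899) and that of Dnmt3b without affected female 3 or control females 2 or 3 (adjusted p of up to 0.0734), and against control males that of Dnmt3b was lost without affected female 3 or control male 1 (adjusted p of up to 0.0597). Zfp445, another zinc finger gene that protects imprints, was not called against control females (log2 fold change -0.28, SE 0.11, adjusted p = 0.0691, edgeR) or control males (log2 fold change -0.26, SE 0.10, adjusted p = 0.0828, edgeR). Trim28, the corepressor that works with both, was not called against control females (log2 fold change 0.26, SE 0.12, adjusted p = 0.121, edgeR) or control males (log2 fold change 0.27, SE 0.11, adjusted p = 0.0891, edgeR). The other called genes of this list were Smchd1 and Uhrf1, higher than in control males (log2 fold changes of 0.49 and 0.38, adjusted p = 0.019 and 0.0252, edgeR). Ehmt1 and Dnmt3a were called higher than in control females (log2 fold changes of 0.33 and 0.28, adjusted p = 0.0289 and 0.0497, edgeR), with Dnmt3a at the threshold. For Tet1, Smchd1, Uhrf1, Ehmt1 and Dnmt3a, the effect of leaving out single libraries was not examined. Methylation itself was not measured. Without control female 1 and control male 4, 8 rose and 3 fell against control females and 10 rose and 3 fell against control males.

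**Figure D5:**
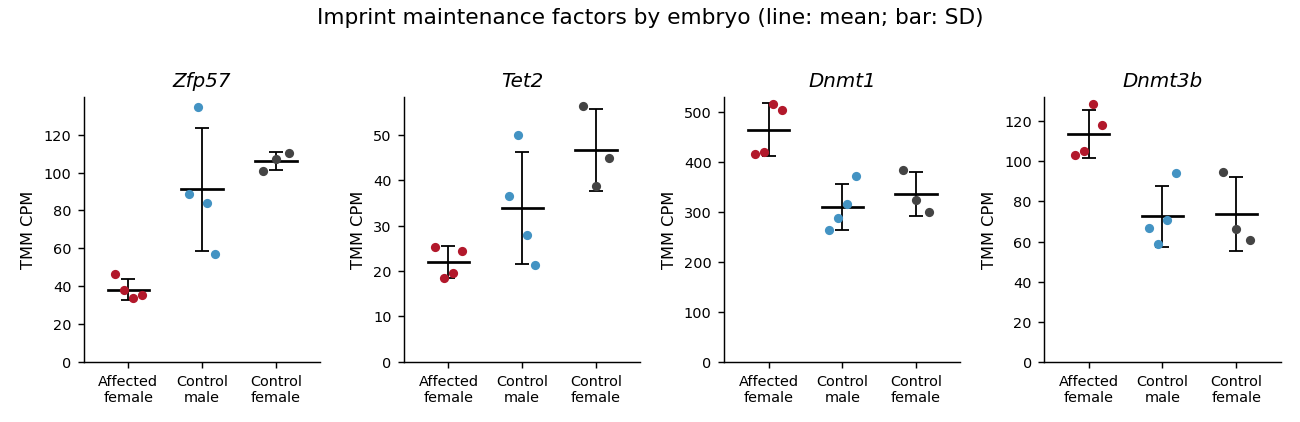
Levels of 4 factors of imprint maintenance or DNA methylation in each embryo (points), in TMM-scaled CPM on linear axes from 0, with the group mean (line) and SD (bar). Zfp57 lies at 33.5 to 46.3 CPM among affected females, 56.98 to 135 CPM among control males and 101 to 110.4 CPM among control females, while Dnmt1 and Dnmt3b are higher in affected females.

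ZFP57 recognises the hexamer TGCCGC, which was searched on both strands in RefSeq promoter windows of GRCm38.p6 (250 bases before to 50 bases after a start). Windows were found for 33 of the 40 members, and 11 members had the hexamer in at least 1 window. These were Meg3, Igf2, Plagl1, Zim1, Mest, Copg2, Snrpn, Grb10, Nnat, Zdbf2 and Mcts2. Of 50 member windows 24% held it, against 11.6% of all 32851 windows, and the median number of CpG was 13.5 in member windows against 7 in all. Windows of a gene can overlap, so they are not all separate promoters: 2 Mest windows that hold it start at 30737800 and 30737803. Of 11 windows of members that fell against control females, 27.3% held the hexamer, against 25.8% of 31 windows of tested members not called. The members that rose against control females had 1 window, and it lacked the hexamer. Against control males the shares were 33.3% of 9 windows (fell), 28.6% of 7 (rose) and 22.2% of 27 (not called). Among the 7 members that fell in both comparisons, Meg3, Plagl1 and Nnat held it, and their windows are shown 5′ to 3′ on the plus strand, with the hexamer in capitals as its reverse complement GCGGCA.
Meg3: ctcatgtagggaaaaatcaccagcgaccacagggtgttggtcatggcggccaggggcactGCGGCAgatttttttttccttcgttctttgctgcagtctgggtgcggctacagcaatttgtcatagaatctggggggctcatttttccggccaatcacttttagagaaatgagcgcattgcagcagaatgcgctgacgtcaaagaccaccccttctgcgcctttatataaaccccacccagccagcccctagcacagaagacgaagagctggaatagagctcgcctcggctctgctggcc
Plagl1: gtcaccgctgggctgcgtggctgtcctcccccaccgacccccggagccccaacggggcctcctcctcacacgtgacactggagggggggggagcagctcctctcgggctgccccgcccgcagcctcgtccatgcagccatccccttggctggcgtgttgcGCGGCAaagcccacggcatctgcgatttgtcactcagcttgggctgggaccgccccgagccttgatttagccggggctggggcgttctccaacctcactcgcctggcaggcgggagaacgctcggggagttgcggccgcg
Nnat: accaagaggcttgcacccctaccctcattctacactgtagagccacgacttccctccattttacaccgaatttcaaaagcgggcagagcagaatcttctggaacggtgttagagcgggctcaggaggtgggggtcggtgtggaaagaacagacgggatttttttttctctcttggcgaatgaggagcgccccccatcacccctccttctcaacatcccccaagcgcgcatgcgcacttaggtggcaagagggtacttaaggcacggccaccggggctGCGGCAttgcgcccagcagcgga
The windows are chr12:109540746-109541045, chr10:13090582-13090881 and chr2:157559828-157560127, all on the plus strand. The match begins at base 61 of the Meg3 window, base 161 of the Plagl1 window and base 278 of the Nnat window. A match in these letters is not a binding site, and the windows need not be the imprinting control regions.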

How the data were processed

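Polyadenylated RNA of 11 E9.5 mouse brains, 1 library each, was sequenced per the labels. The authors deposited whole-number counts per gene, made with featureCounts on mm10 per the submitters' processing notes; aligner, annotation and strand setting: not given in the sources used here. Identifiers were joined to symbols through the RefSeq table for GRCm38.p6 (25275 of 27179 matched), coordinates come from that table, and exon overlaps from a GENCODE annotation of the same build. Counts were scaled by TMM and tested in edgeR 4.0.16 (R 4.3.3) with filterByExpr, quasi-likelihood F-tests, all 3 groups in 1 fit and Benjamini-Hochberg adjustment over 14542 genes; SE is from that fit. Alternatives were DESeq2 1.42.0, limma 3.58.1 (voom with sample weights), other scalings and filters, a replicate block, fits of 2 groups and leaving out libraries. Fits were tested on simulated data. Nothing says whether embryos shared a litter, so p-values measure the spread between these libraries. The members, the further gene lists and the named genes (every member, and of the other lists the called genes of lowest p) were chosen with earlier results of these data known, and leaving out control female 1 with control male 4 was added after seeing the data.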

Additional observations from a re-analysis of the deposited data

Results flagged for a closer look

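Among 72 groups of 4 embryos checked (36 members in affected females and in control males), 5 had an embryo farther from the rest than Dixon's 95% limit allows; chance alone flags about 1 in 20. Igf2r in control male 1 (121 CPM) lay below the other control males. Ndn in affected female 3 (64.0 CPM) lay below the other affected females and still above every control embryo. Cdkn1c in control male 2 (70.2 CPM) was the highest of all embryos. Usp29 in control male 2 (6.10 CPM) was above the other control males. Ube3a in affected female 1 (151 CPM) was below the other affected females. Of these, the call of Igf2r against control males was lost without control male 1, and that of Ndn without affected female 3. The Ndn call was also lost without affected females 1, 2 or 4 or control males 1, 2 or 3. Leaving out these 2 libraries ended calls of many other genes. Against control males 658 genes were called without control male 1 and 361 without affected female 3, against 2940 with all libraries.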

How the results depend on the processing

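No member called by edgeR with all libraries changed direction in that comparison under the 20 alternatives. Members that were not called were not checked for a change of direction. Against control females, members that rose were 3, but 6 with both groups fitted alone, 6 with DESeq2, 12 with limma voom and 12 without control female 1 and control male 4; leaving out 1 library gave 2 to 7 that rose (7 without control male 4, 6 without control female 1, 2 where Peg10 was lost), 6 to 11 that fell (6 without control female 3) and 1663 to 4957 genes called (1663 without control female 3, 1924 without control female 2, 1967 without affected female 3, 2605 without affected female 4). Limma voom called 7639 genes. Against control males, members that rose were 11 with DESeq2, 12 with limma voom and 13 without those 2 libraries, where 14 fell; leaving out 1 library gave 0 to 12 that rose, 1 to 10 that fell and 361 to 5140 genes called (361 when affected female 3 was dropped, 658 when control male 1 was, 1132 control male 2, 1174 affected female 4, 1470 control male 3, 5140 when control male 4 was). Limma voom called 6397 genes, and 6014 were called without those 2 libraries. In control males against control females, limma voom called 1569 genes and 6 lower members, DESeq2 43 genes, and leaving out 1 library gave 18 to 35 genes (35 without control male 2) and 0 to 0 members. Replicate numbers did not pair the libraries (correlations of -0.136 to 0.178, not every library nearest its own number). With the replicate block, 2875 genes were called against control females (3 members higher, 10 lower), 3418 against control males (9 higher, 9 lower) and 21 between the controls (0 and 0); of the other genes named, the block ended the calls of Gab1 (adjusted p = 0.0541, edgeR) and Ago2 (adjusted p = 0.0596, edgeR) against control females. The cause of these shifts was not tested. With 3 or 4 embryos a group, low genes such as Rtl1, Airn and Dio3 give wide errors.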
